A study of Mus musculus with 12 samples.

Results

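The change of the endothelial Ino80 knockout effect between the embryonic stages E13.5 and E14.5 (days after conception) was measured in bulk RNA of whole mouse hearts. It is the difference between knockout (KO) and wild-type (WT) hearts at E14.5 minus the same difference at E13.5, called the interaction here. All 12 libraries of the series entered 1 fit, and the interaction was tested in 20691 genes. Each library came from 1 embryo. The groups were 3 E13.5 WT hearts (replicates 1, 2 and 4), 3 E13.5 KO hearts (replicates 3, 5 and 7), 3 E14.5 WT hearts (replicates 7, 7.2 and 8) and 3 E14.5 KO hearts (replicates 1, 2 and 4). Per the labels, Ino80 was disrupted in endothelium with Tie2, whose promoter is also active in endocardium and in part of the blood lineage. All E13.5 embryos came from litter 1, E14.5 WT replicates 7 and 8 and KO replicates 2 and 4 from litter 2, and E14.5 WT replicate 7.2 and KO replicate 1 from litter 3. Stage and litter 1 therefore cannot be told apart, and both genotypes occurred in every litter. The strain, the deleted part of Ino80 and the genotype of the WT hearts beyond that name are not given in the labels.

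INO80 is a chromatin remodelling complex that uses ATP to slide and exchange nucleosomes, and Ino80 is its ATPase. At these stages the ventricular wall thickens, a coronary plexus spreads through it from sinus venosus and endocardium, and arterial identity is laid down with help from Notch signalling. Endothelial cells are a minority of the cells of a heart, so a bulk library mixes their RNA with that of cardiomyocytes, fibroblasts, epicardium and blood. In such samples fewer cells of a type and less RNA per cell cannot be told apart.

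No gene passed the interaction test (0 of 20691, 0%, in the quasi-likelihood F-test of edgeR with Benjamini-Hochberg adjustment at 0.05), and the smallest adjusted p was 0.997. At an unadjusted p under 0.05 there were 746 genes (3.61%), fewer than the 5% that uniform p-values give, with 479 above 0 (2.32%) and 267 below 0 (1.29%). The 14647 protein-coding genes held 433 of those above 0 and 156 of those below 0. Shares over all genes also count 2883 processed pseudogenes, with 2 above 0 and 68 below 0. DESeq2 called 2 genes (0.00967% of the 20680 with an adjusted p), Sepp1 and Emp1, both at an adjusted p of 0.0341, and limma voom with quality weights called 0 with 1329 at an unadjusted p under 0.05. The genotype difference itself was called by edgeR in 22 genes at E13.5 (0.106%) and in 46 at E14.5 (0.222%). The median standard error (SE) of an interaction was 0.186 on the log2 scale, against 0.131 and 0.132 for the effects at the single stages. The interactions given below are therefore point estimates that did not pass the test, and "called" refers to the effect at a single stage. A missed threshold does not show that the effects were equal at both stages.

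Gene lists numbered 54, with 773 distinct genes tested, and 34 of the 54 had a median interaction above 0. The lists were chosen with earlier results of these data known and carry no test. Among them, sterol synthesis genes stood below WT at E14.5 and mostly above it at E13.5, by medians of -0.14 and 0.16 (log2). The endothelial, venous and tip cell lists had medians near or slightly below WT at E13.5 and above it at E14.5. Macrophage genes, low in all 3 E13.5 KO hearts, were at WT level in 2 of the 3 E14.5 KO hearts. Some genes with large KO effects at both stages, among them Cpa3, Gchfr, Ephb1, Ctla2a and Tcp11l1, had interactions smaller than their SE or close to it. Tmem255a and Eda2r, also called at both stages, had larger ones, of 0.41 ± 0.21 and 0.54 ± 0.30 (log2, SE). The genes were also counted by the size of their point estimates, with a log2 fold change of 0.25 as the smallest counted. Effects of opposite sign that both reached this size (reversed) were found in 820 genes. Of the rest, 4113 had reached it at E13.5 and were smaller at E14.5 (recovered), 3174 reached it at E14.5 and were larger there (worsened), and 12584 stayed under it. Among the 746 genes with an unadjusted p under 0.05 187 were recovered, 183 worsened, 162 reversed and 214 small. Any decrease in size counts, so that Ephb1, at -1.22 and -1.19, is among the recovered. The counts include 2883 processed pseudogenes, whose median KO effect was 0.20 at E13.5 and 0.01 at E14.5. The classes describe point estimates and carry no test, and the larger number of recovered genes does not show a net recovery.

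**Figure D1:**
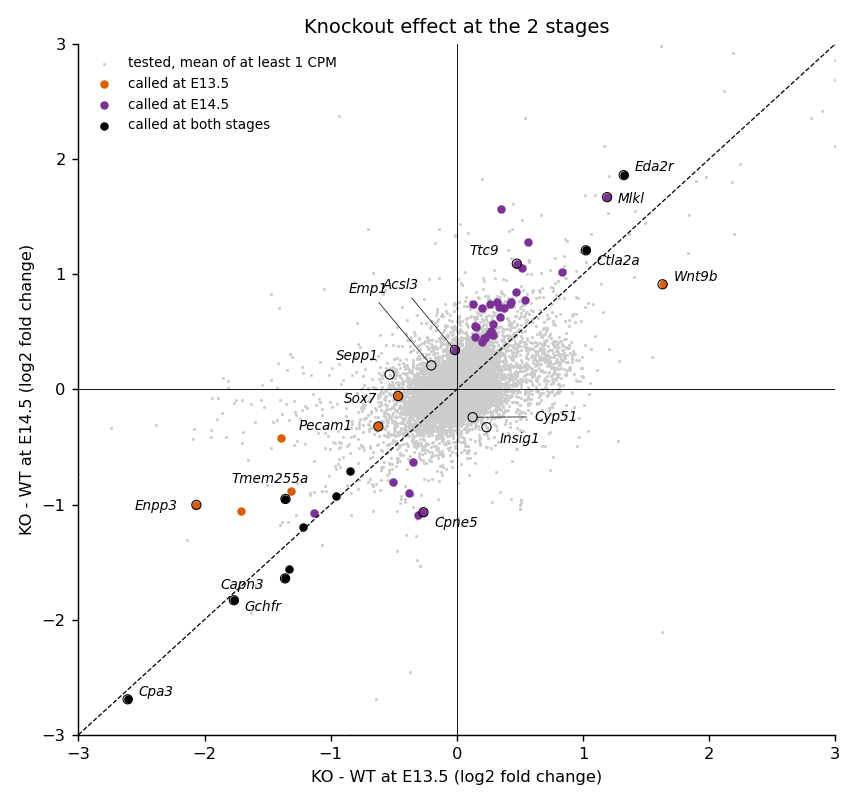
Log2 fold change of KO against WT at E13.5 (x axis) and at E14.5 (y axis) for tested genes averaging 1 CPM or more (counts scaled to TMM-adjusted library size), with values beyond 3 drawn at the edge; the dashed line marks equal effects and coloured points the genes called by edgeR. Called genes lie in the quadrants of equal sign apart from Acsl3, which is at -0.02 and 0.34; Sox7, Enpp3 and Wnt9b lie nearer to 0 at E14.5 than at E13.5, and Acsl3, Ttc9 and Cpne5 lie farther from it.

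Libraries held 46556000 to 182546000 counts. Ino80 itself (chr2:119373042-119477687, GRCm38) was at 36.6, 33.8 and 30.7 CPM in E13.5 WT hearts and at 29.6 CPM in each E13.5 KO heart. At E14.5 it was at 33.9, 31.4 and 30.8 CPM in WT and at 27.0, 29.5 and 31.9 CPM in KO hearts. The groups did not overlap at E13.5 and overlapped at E14.5, and the interaction was 0.07 ± 0.11 (log2, SE, unadjusted p = 0.566). A whole heart keeps the Ino80 RNA of its other cells, so these levels do not measure the disruption in endothelium. Sarcomere genes summed to 34639 to 45592 CPM in all libraries. Y-linked genes were expressed in 1 of 3 E13.5 WT, 2 of 3 E13.5 KO, 1 of 3 E14.5 WT and 1 of 3 E14.5 KO embryos. E14.5 KO replicate 1 stood apart from the other E14.5 KO hearts, with erythroid genes at a sum of 42401 CPM against 5211 and 10133 CPM, and macrophage genes were lowest in replicate 5 of the E13.5 and replicate 2 of the E14.5 KO hearts. The part of these differences in cell content in the results was not tested. Processed pseudogenes, 2883 of the tested genes, had a median interaction of -0.19 against 0.02 over 14647 protein-coding genes, and no gene passed within either class. P-values measure the spread between single embryos.

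Sterol synthesis gave the lowest median interaction of any list with at least 10 tested genes. Cells short of cholesterol move the SREBP factors to the nucleus, where they raise the enzymes of the pathway, and INSIG1 is the sterol-dependent anchor that holds SREBP back. All 14 tested members had an interaction below 0, with a median of -0.33 against -0.01 over all genes, and 7 of the 14 reached an unadjusted p under 0.05, where the share over all genes below 0 was 1.29%. The members were chosen with earlier results of these data known, so these counts carry no test. At E13.5 the median KO effect was 0.16 and 13 of 14 members were above WT. At E14.5 it was -0.14 and all 14 were below WT. These effects were small, and stayed under 0.25 (log2) at both stages in 10 of the 14. By that size 3 members were worsened, 1 was recovered and 0 were reversed. KO hearts lay above all WT hearts in 8 of the 14 at E13.5 (8.44% of all genes) and below them in 1 (11.2%). At E14.5 they lay below all WT hearts in 4 (5.87%) and above them in 0 (6.81%). The median difference between the stages (E14.5 minus E13.5) was -0.10 in WT and -0.33 in KO hearts.

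Insig1 (chr5:28071363-28078662) was at 26.9, 30.6 and 29.8 CPM in E13.5 WT hearts and at 30.8, 35.5 and 36.4 CPM in KO hearts. At E14.5 the WT hearts were at 37.2, 36.6 and 32.6 CPM and the KO hearts at 31.8, 25.9 and 27.0 CPM. All KO hearts were above all WT hearts at E13.5 and below them at E14.5. The log2 KO effect was 0.24 ± 0.10 at E13.5 and -0.33 ± 0.10 at E14.5, an interaction of -0.56 ± 0.14 (unadjusted p = 0.00105, adjusted p = 0.997).

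Cyp51, the lanosterol demethylase, was at 45.4, 45.9 and 44.0 CPM in E13.5 WT and at 48.6, 48.5 and 50.5 CPM in E13.5 KO hearts. At E14.5 it was at 45.6, 47.4 and 45.7 CPM in WT and at 42.2, 36.3 and 38.8 CPM in KO hearts. The groups were separate at both stages in opposite order, with an interaction of -0.37 ± 0.09 (unadjusted p = 0.00121). Msmo1, the next demethylase of the pathway and not on the list, had the same order without overlap and an interaction of -0.49 ± 0.12 (unadjusted p = 0.00109).

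Sqle, the squalene epoxidase, was at 37.7 to 40.8 CPM in E13.5 WT and 42.9 to 45.6 CPM in E13.5 KO hearts, and at 33.7 to 40.05 CPM and 33.2 to 33.8 CPM at E14.5. Its groups were separate at E13.5 and overlapped at E14.5, with an interaction of -0.36 ± 0.10. Hmgcs1, which makes HMG-CoA for the pathway, was at 138 to 149 CPM in E13.5 WT and 163 to 176 CPM in E13.5 KO hearts. A day later it was at 148 to 190 CPM in WT and 147 to 150 CPM in KO hearts, with an interaction of -0.37 ± 0.12. Idi1, an isomerase of the same pathway, had an interaction of -0.41 ± 0.14. The list median stayed between -0.38 and -0.30 when each library was left out in turn.

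The stretches before the start of the 4 sterol genes with the smallest interaction p among those with a RefSeq window (GRCm38.p6) are shown because these members differed in the same direction. Of the 14 genes 8 were matched to a window. The motifs searched on both strands of the 250 bases before the start were the CCAAT box (CCAAT) and the sterol response element TCACNCCAC, and capitals mark their matches. Insig1 (chr5:28071162-28071411, plus strand), Cyp51 (chr5:4104698-4104947, minus strand), Hmgcs1 (chr13:119690101-119690350, plus strand) and Idi1 (chr13:8885356-8885605, plus strand) read as follows, 5′ to 3′.
Insig1: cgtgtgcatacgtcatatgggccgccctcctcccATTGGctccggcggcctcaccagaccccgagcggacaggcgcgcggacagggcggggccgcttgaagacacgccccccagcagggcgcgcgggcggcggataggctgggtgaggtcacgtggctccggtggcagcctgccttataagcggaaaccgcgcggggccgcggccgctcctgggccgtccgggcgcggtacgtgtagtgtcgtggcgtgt
Cyp51: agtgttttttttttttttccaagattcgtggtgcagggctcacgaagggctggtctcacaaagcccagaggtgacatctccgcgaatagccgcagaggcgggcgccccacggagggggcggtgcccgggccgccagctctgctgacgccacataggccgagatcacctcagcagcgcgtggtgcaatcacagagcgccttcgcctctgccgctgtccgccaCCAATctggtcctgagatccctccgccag
Hmgcs1: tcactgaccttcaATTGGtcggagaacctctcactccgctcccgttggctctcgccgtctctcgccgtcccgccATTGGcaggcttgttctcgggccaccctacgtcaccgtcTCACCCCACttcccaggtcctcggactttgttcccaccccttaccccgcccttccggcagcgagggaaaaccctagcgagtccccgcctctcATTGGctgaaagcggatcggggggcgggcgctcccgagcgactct
Idi1: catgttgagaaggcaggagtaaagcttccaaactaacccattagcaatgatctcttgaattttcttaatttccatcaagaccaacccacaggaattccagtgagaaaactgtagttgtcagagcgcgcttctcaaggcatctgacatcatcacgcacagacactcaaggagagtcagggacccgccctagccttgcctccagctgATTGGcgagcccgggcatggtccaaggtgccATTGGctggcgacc
A CCAAT box was found in all 8 matched genes, and in 37.5% of the 27025 genes with a window. TCACNCCAC was found in 1 of the 8, Hmgcs1, and in 1.22% of all genes with a window. Other spellings of the sterol response element were not searched, so a gene without a match may still hold one. A match is a description of the letters and not of binding in these hearts.

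The 10 genes with the smallest interaction p above 0 were mostly low in E13.5 KO hearts and at or above WT at E14.5. Sepp1, the selenium carrier selenoprotein P, was at 158, 142 and 153 CPM in E13.5 WT and at 104, 106 and 103 CPM in E13.5 KO hearts. At the later stage it was at 155, 176 and 195 CPM in WT and at 167, 194 and 214 CPM in KO hearts. The KO hearts were below all WT hearts at E13.5 and overlapped with them a day later. Its log2 KO effect was -0.53 ± 0.10 at E13.5 (adjusted p = 0.056, not called) and 0.13 ± 0.09 at E14.5. The interaction of 0.66 ± 0.13 had the smallest unadjusted p of all genes, 0.000256.

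Emp1 (chr6:135362545-135383173), a tetraspan membrane protein, crossed over. It was at 162, 174 and 154 CPM in E13.5 WT and at 143, 144 and 140 CPM in E13.5 KO hearts. Its E14.5 level was 178, 177 and 177 CPM in WT and 212, 196 and 208 CPM in KO hearts. The groups did not overlap at either stage, and the interaction was 0.41 ± 0.09 (unadjusted p = 0.000307). Such a crossing from below to above WT without overlap was found in 23 of all genes (0.111%), and the opposite crossing, as in Insig1, in 32 (0.155%). Emp1 and Insig1 were named for their small interaction p, which favours a crossing, and these counts carry no test.

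Among the other genes with the smallest p above 0, Trp53i11, Nr2f2 and Crem also crossed without overlap. Nr2f2, a nuclear receptor that sets venous identity, was at 33.6 to 38.3 CPM in E13.5 WT and 30.4 to 32.9 CPM in E13.5 KO hearts. The E14.5 level was 26.4 to 29.5 CPM in WT and 31.7 to 32.8 CPM in KO hearts, so that its level differed between the stages by -0.39 (log2) in WT and by 0.03 in KO hearts. Ezh1, a histone methyltransferase (interaction 0.44 ± 0.10), Sat1, an enzyme of polyamine breakdown (0.57 ± 0.14), and Cd109, a surface protein that binds TGF-beta (0.67 ± 0.17), were below all WT hearts at E13.5 and overlapped with them at E14.5. Trp53i11 had an interaction of 0.55 ± 0.12 and Crem, a cAMP-responsive factor, of 0.48 ± 0.12.

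Acsl3, which activates long-chain fatty acids for lipid droplets, was near WT at E13.5 and was called at E14.5. It was at 66.8, 66.6 and 64.7 CPM in E13.5 WT and at 65.2, 64.7 and 66.1 CPM in E13.5 KO hearts. A day later it was at 57.1, 60.1 and 60.2 CPM in WT and at 74.6, 79.9 and 70.3 CPM in KO hearts. The groups overlapped at E13.5, and all KO hearts were above all WT hearts at E14.5. The KO effect was -0.02 ± 0.06 at E13.5 and 0.34 ± 0.06 at E14.5 (edgeR adjusted p = 0.0293), an interaction of 0.36 ± 0.08 (unadjusted p = 0.00072).

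Below 0, besides Insig1, Msmo1, Cyp51 and Sqle, the 10 genes with the smallest p included Gcsh, AA465934, Aqp1, Myl12b and Cpne5. Cpne5, a calcium-dependent membrane-binding copine, was at 19.8, 16.0 and 24.9 CPM in E13.5 WT and at 14.6, 16.3 and 19.5 CPM in E13.5 KO hearts. At the later stage it was at 19.5, 22.96 and 17.4 CPM in WT and at 9.32, 10.7 and 8.54 CPM in KO hearts. The groups were separate at E14.5 alone, where the effect of -1.07 ± 0.16 was called (edgeR adjusted p = 0.0241). At E13.5 it was -0.26 ± 0.16, and the interaction was -0.80 ± 0.23.

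Aqp1, the water channel of red cells and capillary endothelium (-0.66 ± 0.18), likewise overlapped at E13.5 and was below all WT hearts at E14.5. Myl12b, a regulatory light chain of non-muscle myosin, was at 83.4 to 95.4 CPM in E13.5 WT, 113 to 122 CPM in E13.5 KO, 86.1 to 91.2 CPM in E14.5 WT and 84.2 to 96.2 CPM in E14.5 KO hearts. It was separate at E13.5 and overlapped at E14.5, with an interaction of -0.34 ± 0.10. Gcsh, of the glycine cleavage system, had an interaction of -0.42 ± 0.11. AA465934, annotated as a processed transcript, was split by embryo rather than by group, at 1.60 to 2.33 CPM in 8 hearts and at 7.996 to 11.6 CPM in the other 4, which were replicates 5 and 7 of the E13.5 KO group and replicates 7 and 7.2 of the E14.5 WT group, and its interaction was -3.73 ± 0.87.

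**Figure D2:**
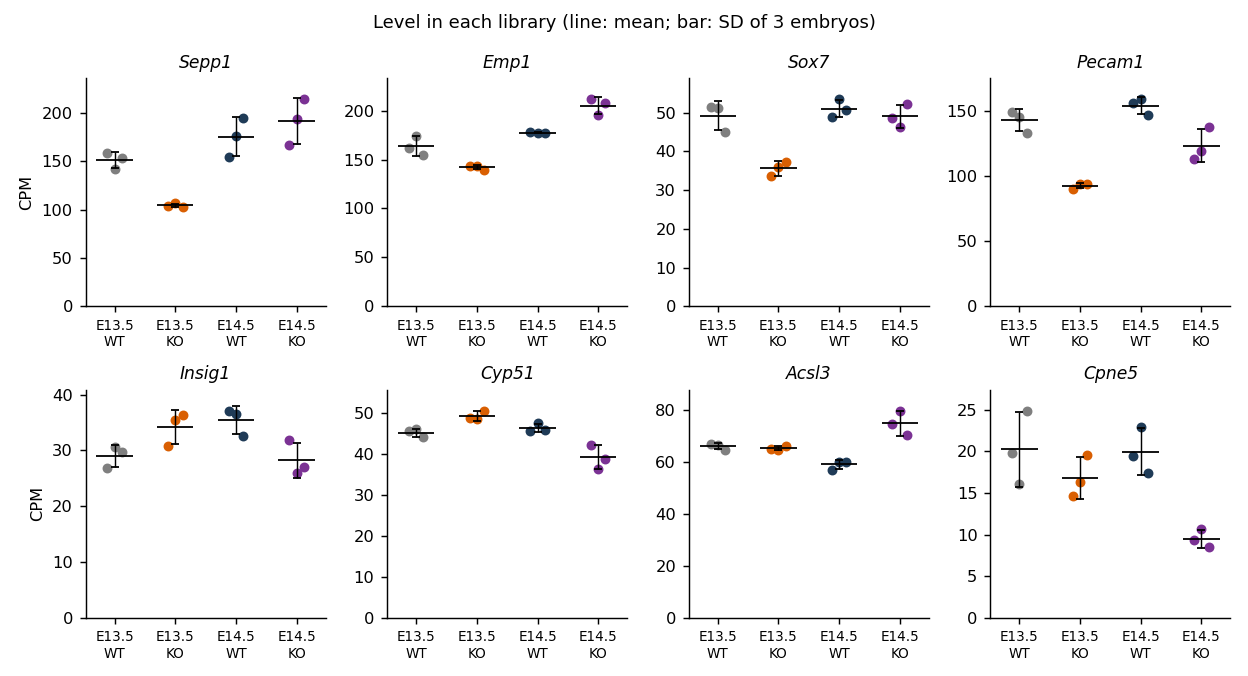
Level in CPM of 8 genes in each library (points), with the mean (line) and standard deviation (SD, bar) of the 3 embryos of each group. Sepp1, Sox7 and Pecam1 are low in E13.5 KO hearts, Emp1, Insig1 and Cyp51 change order between the stages, and Acsl3 and Cpne5 are separate from WT at E14.5.

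Of the 22 genes called at E13.5, 11 were also called at E14.5, all 22 were on the same side of WT there, and 19 had an unadjusted p under 0.05. The effect was smaller at E14.5 in 15 of the 22, with a median size of 1.12 against 1.38 at E13.5. Of the 46 genes called at E14.5, 45 were on the same side at E13.5 and 41 were smaller there, with a median size of 0.399 against 0.791. A gene chosen for passing at one stage is favoured to be larger at that stage, so the 2 counts of smaller effects follow in part from the choice and neither shows recovery or worsening. The stages share no library.

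Among the 10 genes with the smallest p at E13.5, the endothelial transcription factor Sox7 (chr14:63943673-63950732) was nearest to WT at E14.5. It was at 51.5, 51.1 and 44.9 CPM in E13.5 WT and at 33.6, 36.0 and 37.3 CPM in E13.5 KO hearts. Its E14.5 level was 49.0, 53.4 and 50.6 CPM in WT and 48.6, 46.3 and 52.1 CPM in KO hearts. The groups were separate at E13.5, where the effect of -0.47 ± 0.07 was called (edgeR adjusted p = 0.0348), and overlapped at E14.5, where it was -0.06 ± 0.07. The interaction was 0.41 ± 0.10 (unadjusted p = 0.00173).

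Pecam1 (chr11:106654217-106750628), the adhesion molecule CD31 of endothelial junctions, was at 150, 146 and 134 CPM in E13.5 WT and at 90.6, 93.9 and 94.5 CPM in E13.5 KO hearts. The E14.5 level was 157, 159 and 148 CPM in WT and 113, 120 and 138 CPM in KO hearts. KO hearts were below all WT hearts at both stages, with an effect of -0.62 ± 0.08 at E13.5 (edgeR adjusted p = 0.00809) and -0.32 ± 0.08 at E14.5. The interaction was 0.30 ± 0.11 (unadjusted p = 0.0138), and 0.21 without E14.5 KO replicate 1, the KO heart with the highest level.

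Enpp3, an ectonucleotidase of mast cells and basophils among others, had an effect of -2.06 ± 0.28 at E13.5 and -1.003 ± 0.27 at E14.5, and Tmem255a one of -1.36 ± 0.15 and -0.95 ± 0.15. Wnt9b, an endocardial Wnt ligand, was above WT in all KO hearts at both stages, by 1.63 ± 0.24 and 0.91 ± 0.25. The 5 others showed like values at both stages. E13.5 and E14.5 effects were 1.02 and 1.21 for Ctla2a, -0.85 and -0.71 for Tcp11l1, -1.77 and -1.83 for Gchfr, -2.61 and -2.69 for the mast cell protease Cpa3, and -1.22 and -1.19 for the ephrin receptor Ephb1. Gchfr (chr2:119167773-119172390) lies near Ino80 on chromosome 2, as does Dll4 (chr2:119325784-119335962). Ltk, Capn3, Ckmt1 and Duox2 (within chr2:119751320-122298449) were also called at E13.5, with effects of -2.30, -1.36, -3.28 and -2.61. Ltk, Ckmt1 and Duox2 averaged under 1 CPM and are outside the naming rule. The part of this position in the effects was not tested. Nppc, which encodes C-type natriuretic peptide, falls outside the naming rule through its mean of under 1 CPM and is given after its values were seen. It was at 0.0641 to 0.101 CPM in E13.5 WT, 0.454 to 0.707 CPM in E13.5 KO, 0.162 to 0.320 CPM in E14.5 WT and 0.308 to 0.457 CPM in E14.5 KO hearts. Its effect was 2.84 ± 0.39 at E13.5 (called) and 0.72 ± 0.37 at E14.5, with an interaction of -2.12 ± 0.53 (unadjusted p = 0.00152).

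Among the 10 genes with the smallest p at E14.5, several were above WT in all KO hearts at both stages by more at the later one. Ttc9 was at 10.7 to 11.3 CPM in E13.5 WT and 14.7 to 16.8 CPM in E13.5 KO hearts, and at 6.90 to 10.6 CPM and 17.0 to 20.6 CPM at E14.5. Its effect was 0.48 ± 0.13 at E13.5 and 1.09 ± 0.14 at E14.5, where it was called (edgeR adjusted p = 0.00616). Pros1, the anticoagulant protein S, had effects of 0.37 and 0.71, Shisa5, a p53-inducible membrane protein, of 0.29 and 0.57, and Fabp5, a fatty acid binding protein, of 0.34 and 0.72. Fam101b, an actin regulator, had effects of -0.35 and -0.63. The interactions of these 5 genes had unadjusted p-values between 0.0061 and 0.0184. Eda2r, a p53-induced receptor of the TNF family, had effects of 1.32 and 1.86, and Mlkl, the executor of necroptosis, of 1.19 and 1.67. Without E14.5 KO replicate 2, the heart with the highest level of both, the interaction was 0.17 in place of 0.54 for Eda2r and 0.13 in place of 0.48 for Mlkl. Capn3, a calpain, had effects of -1.36 and -1.64.

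Of the 25 pan-endothelial genes tested, 23 had an interaction above 0, and 7 had an unadjusted p under 0.05 against 2.32% of all genes. Among 14647 protein-coding genes 433 were above 0 at that p, and 6649 had an interaction below 0. The median interaction was 0.24, from a median KO effect of -0.09 at E13.5 to 0.21 at E14.5, and 2 members, Sox7 and Pecam1, were called at E13.5. The mean log2 CPM of the list was 5.67, 5.68 and 5.68 in E13.5 WT and 5.56, 5.57 and 5.57 in E13.5 KO hearts, which did not overlap. A day later it was 5.58, 5.65 and 5.75 in WT and 5.66, 5.75 and 5.87 in KO hearts, which overlapped. The lowest WT and the highest KO heart at E14.5 were those of litter 3, and without that litter the median interaction was 0.17 with 20 of 25 above 0.

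Egfl7, an angiogenic matrix protein of endothelium, was at 58.1 to 65.2 CPM in E13.5 WT and 52.7 to 60.6 CPM in E13.5 KO hearts, and at 48.2 to 52.6 CPM and 53.5 to 62.4 CPM at E14.5. Its groups overlapped at E13.5 and were separate at E14.5, with an interaction of 0.31 ± 0.11. The receptor Tie1 had an interaction of 0.29 ± 0.12 and the junction cadherin Cdh5 of 0.26 ± 0.11. Kdr, the main VEGF receptor, had effects of 0.02 at E13.5 and 0.24 at E14.5, with overlap at both stages. Vwf, which encodes von Willebrand factor, was one of the 2 members below 0, at -0.12 ± 0.36.

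Venous, plexus and tip cell genes also had interactions above 0 by point estimate. All 11 tested genes of the venous and coronary plexus list had an interaction above 0 (median 0.25, and 0.16 without E14.5 WT replicate 8), and 2 had an unadjusted p under 0.05, against 2.32% of all genes. Besides Nr2f2 these included Kcne3, a potassium channel subunit, at 0.89 ± 0.39, while Flt4, the receptor of VEGF-C, was at 0.27 ± 0.16 and the ligand Apln at 0.50 ± 0.32. Without E14.5 KO replicate 2 the interaction was 0.54 for Kcne3 and 0.21 for Apln. The apelin receptor Aplnr was below all WT hearts at both stages, at 35.5 to 44.6 CPM in E13.5 WT, 16.4 to 20.3 CPM in E13.5 KO, 45.3 to 60.9 CPM in E14.5 WT and 20.9 to 38.7 CPM in E14.5 KO hearts. Its interaction was 0.25 ± 0.28, and -0.01 without E14.5 KO replicate 1.

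Of 19 tested tip cell and angiogenesis genes, which share Kcne3 and others with the lists above, 18 were above 0 (median 0.28), from a median KO effect of -0.05 at E13.5 to 0.21 at E14.5. Plaur, the urokinase receptor, was called at E14.5 with an effect of 1.28 ± 0.22 (edgeR adjusted p = 0.0319) after 0.56 ± 0.21 at E13.5. Flt1, a decoy receptor for VEGF, had an interaction of 0.31 ± 0.14 and Calcrl, a receptor for adrenomedullin, of 0.32 ± 0.15, while Vegfb was at -0.05 ± 0.12.

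Arterial and Notch genes had medians below WT in KO hearts at E13.5. Of 17 coronary arterial genes 15 were below WT at E13.5 (median -0.25) and 12 at E14.5 (median -0.09), and 13 had an interaction above 0 (median 0.13, which was 0.22 without E14.5 KO replicate 2 and 0.08 without E14.5 KO replicate 1). KO hearts lay below all WT hearts in 9 of the 17 at E13.5, against 11.2% of all genes, and in 2 at E14.5, against 5.87%. Of 18 Notch signalling genes 13 had an interaction above 0 (median 0.10, and 0.05 without E14.5 KO replicate 1), and 4 of these had an unadjusted p under 0.05, against 2.32% of all genes. The list was separate at E13.5, at 4.49 to 4.54 mean log2 CPM in WT and 4.31 to 4.34 in KO hearts. At the later stage it was at 4.57 to 4.70 in WT, at 4.50 and 4.51 in KO replicates 4 and 2 and at 4.72 in KO replicate 1.

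The arterial Notch ligand Dll4 was at 22.8, 19.5 and 21.8 CPM in E13.5 WT and at 16.9, 18.6 and 17.3 CPM in E13.5 KO hearts. Its E14.5 level was 21.7, 21.9 and 19.9 CPM in WT and 25.3, 19.9 and 28.3 CPM in KO hearts. Separate at E13.5 and overlapping at E14.5, it had an interaction of 0.49 ± 0.16. The endothelial receptor Notch4 had the same pattern, with effects of -0.37 and 0.16 and an interaction of 0.53 ± 0.16, as did the target Hey1, with -0.39 and 0.03 and an interaction of 0.42 ± 0.13. The target Hes1 was near WT at E13.5 (0.04) and above it at E14.5 (0.34). Notch1 had effects of -0.09 and -0.03, and Jag1, another ligand, an interaction of -0.24 ± 0.14. Cxcr4, the chemokine receptor of coronary arterial assembly, had effects of -1.21 ± 0.26 at E13.5 and -0.48 ± 0.26 at E14.5 and was at 6.87, 7.90 and 13.8 CPM in the E14.5 KO hearts. Without the highest of them, replicate 1, its interaction of 0.73 was 0.36. Gja4, the connexin 37 gap junction gene, had an interaction of -0.24 ± 0.12.

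Endocardial genes had a median interaction of 0.12 over 17 tested members, 13 of them above 0 and none at an unadjusted p under 0.05. That median was 0.03 without E14.5 WT replicate 7.2 and 0.24 without E14.5 WT replicate 7. Wnt9b, described above, was the member with the smallest p and lay below 0, at -0.72 ± 0.34. Nfatc1, a factor of valve endocardium, was at 0.38 ± 0.22, Plvap, of fenestral diaphragms, at 0.29 ± 0.20 and the natriuretic peptide clearance receptor Npr3 at 0.25 ± 0.18. Without E14.5 WT replicate 7.2 these 3 were at 0.20, 0.13 and 0.15.

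**Figure D3:**
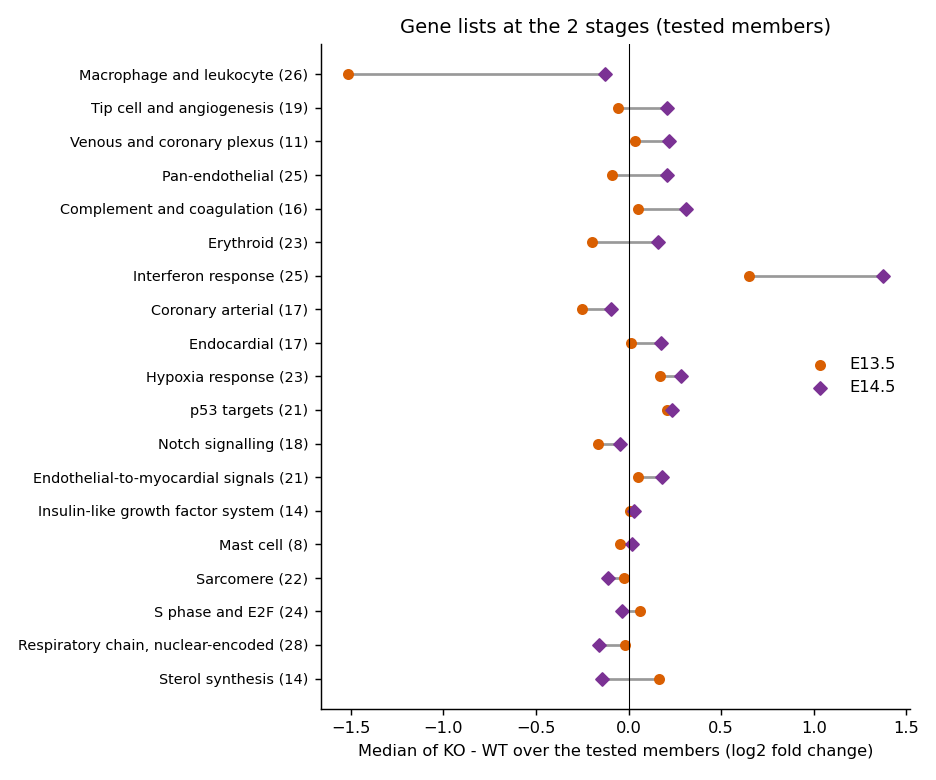
Median log2 fold change of KO against WT over the tested members of 19 gene lists (number of members in brackets) at E13.5 (circles) and E14.5 (diamonds), ordered by their median interaction. Macrophage genes move from -1.52 to -0.13, pan-endothelial genes from -0.09 to 0.21, coronary arterial genes lie below WT at both stages (-0.25 and -0.09), interferon genes lie above WT at both stages, and sterol synthesis genes move from 0.16 to -0.14.

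Macrophage and leukocyte genes showed the largest median interaction of the lists described, 1.34 over 26 tested genes, with 25 above 0 and none at an unadjusted p under 0.05. Cardiac macrophages at these stages descend largely from yolk sac and fetal liver, and Tie2 is active in part of the blood lineage they come from. The mean log2 CPM of the list was 2.07, 2.14 and 2.18 in E13.5 WT hearts and 1.87, 2.07 and 2.15 in E14.5 WT hearts. In E13.5 KO hearts it was 0.80 in replicate 3, -1.17 in replicate 5 and 1.39 in replicate 7, all below WT. In E14.5 KO hearts it was 2.39 in replicate 4, 2.19 in replicate 1 and -0.13 in replicate 2. One E14.5 KO heart was thus within the range of the E13.5 KO hearts and the other pair at or above the WT range. Without the lowest KO heart of each stage the median interaction was 1.39.

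Csf1r, the receptor for the macrophage growth factor CSF1, was at 22.3 to 23.8 CPM in E13.5 WT and at 6.51, 4.03 and 11.4 CPM in E13.5 KO replicates 3, 5 and 7. A day later it was at 15.02 to 19.1 CPM in WT and at 4.63, 23.3 and 19.3 CPM in KO replicates 2, 4 and 1. Its effect was -1.64 ± 0.53 at E13.5 and -0.13 ± 0.52 at E14.5, and neither was called. The interaction was 1.51 ± 0.74, and it was 1.89 ± 0.92 for Fcgr3, 1.36 ± 0.68 for Cd68, 1.65 ± 0.85 for Ptprc and 1.41 ± 1.23 for the complement gene C1qa. Lyz2, a lysozyme also expressed by other cells, was the 1 member below 0, at -0.01 ± 0.47.

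The mast cell list was split. Of its 8 tested members 4 were above and 4 below WT at each stage, with a median KO effect of -0.05 at E13.5 and 0.02 at E14.5. Its mean log2 CPM, in which members of low level count as much as abundant ones, was lower in KO hearts, at 0.90 to 1.18 mean log2 CPM in E13.5 WT, 0.49 to 0.83 in E13.5 KO, 1.89 to 2.36 in E14.5 WT and 0.70 to 1.59 in E14.5 KO hearts. The summed CPM of the list was 104 to 113 in E13.5 WT, 105 to 110 in E13.5 KO, 116 to 119 in E14.5 WT and 117 to 127 in E14.5 KO hearts. Cpa3 was at 1.28 to 2.52 CPM in E13.5 WT, 0.197 to 0.341 CPM in E13.5 KO, 2.94 to 4.72 CPM in E14.5 WT and 0.404 to 0.998 CPM in E14.5 KO hearts, and was called at both stages. The median interaction was -0.03, with 4 members above 0, and ran from -0.30 without E14.5 KO replicate 4 to 0.08 without E14.5 KO replicate 2. Kit, the stem cell factor receptor, which endothelial and other heart cells also express, was above WT, with effects of 0.20 ± 0.12 at E13.5 and 0.71 ± 0.12 at E14.5 (called at E14.5, edgeR adjusted p = 0.0271). The protease Cma1 had effects of -1.26 ± 0.53 and -2.14 ± 0.47 and an interaction of -0.88 ± 0.72, which was 0.47 without E13.5 KO replicate 7.

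Erythroid genes had a median interaction of 0.22 over 23 tested members, none at an unadjusted p under 0.05. The adult beta-globin gene Hbb-bs was at 356 to 1234 CPM in E13.5 KO and 1517 to 2659 CPM in E13.5 WT hearts. The E14.5 level was 3280 to 5697 CPM in WT and 848, 2671 and 12342 CPM in KO replicates 2, 4 and 1. Its interaction of 1.59 ± 1.22 was -0.00023 without E14.5 KO replicate 1, and the list's median was then -0.22, against 0.65 without E13.5 KO replicate 7. Hbb-bt, its neighbour with a near-identical sequence, was at 1.63 ± 1.21, and the erythroid factor Gata1 at -0.84 ± 0.96.

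Interferon-induced genes were above WT at both stages with a wide spread between embryos. Of 25 tested members 23 were above WT at each stage, with a median of 0.65 at E13.5 and 1.38 at E14.5 and a median interaction of 0.17, 15 members being above 0. Without E14.5 KO replicate 2 that median was -0.07, and without E13.5 KO replicate 7 it was 0.36. The mean log2 CPM of the list was 0.69 to 0.80 in E13.5 WT, 1.32 to 2.29 in E13.5 KO and 0.90 to 1.06 in E14.5 WT hearts, and 2.66, 2.39 and 1.17 in E14.5 KO replicates 2, 4 and 1. Bst2, an interferon-induced tether of viruses, had an effect of 1.36 ± 0.24 at E13.5 and 1.35 ± 0.24 at E14.5, and Isg15, a ubiquitin-like modifier, of 2.81 ± 0.60 and 2.35 ± 0.60. Mx1 was at 0.870, 0.308 and 0.103 CPM in the E14.5 KO replicates 2, 4 and 1, against 0.0487 to 0.107 CPM in WT, and had an interaction of 2.31 ± 1.05. Stat2, a transducer of interferon signals, had an interaction of 0.37 ± 0.18, and Xaf1 one of -0.79 ± 0.88.

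The p53 target list, which DNA damage can induce, was above WT by a median of 0.21 at E13.5 and 0.23 at E14.5, and no member had an interaction at an unadjusted p under 0.05. Cdkn1a, the cell cycle inhibitor p21, had effects of 0.85 ± 0.19 and 0.79 ± 0.19, with E14.5 KO replicate 2 highest at 67.5 CPM and the other pair at 33.8 and 44.9 CPM. Trp53inp1 had an interaction of 0.35 ± 0.17, the death receptor Tnfrsf10b of 0.40 ± 0.19 and the nuclease Aen of -0.29 ± 0.14.

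Signals and receptors between endothelium and myocardium held 3 genes that were near WT at E13.5 and above all WT hearts at E14.5, Bmp10, Ednrb and Tgfb1. Over 21 tested genes the median interaction was 0.09, with 3 above 0 at an unadjusted p under 0.05 (2.32% of all genes). Bmp10, Ednrb and Tgfb1 were named for their small interaction p. KO hearts lay above all WT hearts in 6 of the 21 at E13.5 (8.44% of all genes) and in 5 at E14.5 (6.81%). They lay below all WT hearts in 2 at each stage (11.2% and 5.87%). Bmp10, a trabecular growth factor of the myocardium, was at 40.6 to 53.4 CPM in E13.5 WT and 43.0 to 49.3 CPM in E13.5 KO hearts. A day later it was at 28.6 to 33.1 CPM in WT and 34.3 to 54.8 CPM in KO hearts. The difference of E14.5 from E13.5 was -0.59 in WT and -0.05 in KO hearts, and the interaction was 0.54 ± 0.21. The endothelin receptor Ednrb followed the same course, with a stage difference of -0.72 in WT and -0.02 in KO hearts and an interaction of 0.70 ± 0.26. Tgfb1 was above all WT hearts at E14.5, at 38.1 to 38.6 CPM against 25.1 to 30.1 CPM, and overlapped at E13.5, with an interaction of 0.33 ± 0.12. Nrg1, the endocardial neuregulin that drives trabeculation, had effects of 0.68 ± 0.27 and 0.80 ± 0.28, and Bmp2 an interaction of -0.25 ± 0.17. The list's median was 0.02 without E14.5 KO replicate 2, and 0.01 without both KO hearts that were low in macrophage genes.

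The insulin-like growth factor system had a median interaction of 0.04 over 14 tested members, which was -0.09 without litter 3, -0.02 without E14.5 KO replicate 1 and 0.11 without E14.5 KO replicate 2. Igfbp3, a binding protein of endothelium, was at 122, 114 and 87.0 CPM in E13.5 WT and at 68.4, 69.3 and 69.4 CPM in E13.5 KO hearts. At the later stage it was at 117, 70.7 and 74.7 CPM in WT and at 116, 94.1 and 104 CPM in KO hearts. Separate at E13.5 and overlapping at E14.5 through WT replicate 8, it had an interaction of 0.90 ± 0.25 (unadjusted p = 0.00466). Igfbp4 (0.23 ± 0.10) and Igfbp5 (0.49 ± 0.23), the other binding proteins near the top of the list, were above 0 as well, while the ligand Igf1 was at 0.18 ± 0.15 and its receptor Igf1r at -0.15 ± 0.18.

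Complement and coagulation genes had a median interaction of 0.23 over 16 tested members, with 3 above 0 at an unadjusted p under 0.05 (2.32% of all genes). Tfpi, the tissue factor inhibitor, had an interaction of 0.26 ± 0.10, tissue plasminogen activator Plat of 0.32 ± 0.13 and Cd55 of 0.44 ± 0.26. Cd59b, a member of a tandem gene pair that can share reads, was at -0.34 ± 0.36.

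Respiratory chain genes encoded in the nucleus lay below 0 as a whole by small amounts. All 28 tested members had an interaction below 0 (median -0.13), none at an unadjusted p under 0.05. KO effects stayed under 0.25 (log2) at both stages in 26 of the 28, and 2 were worsened. The median stage difference was 0.30 in WT and 0.16 in KO hearts, and the median KO effect was -0.02 at E13.5 and -0.16 at E14.5, when all 28 were below WT. The mean log2 CPM of the list was 7.90 to 8.02 in E13.5 WT, 7.84 to 7.99 in E13.5 KO, 8.23 to 8.45 in E14.5 WT and 7.98 to 8.26 in E14.5 KO hearts. The groups overlapped at E14.5 through KO replicate 1, and the highest WT heart was replicate 7.2 of litter 3. Without that WT heart the median interaction was -0.05, and without E14.5 KO replicate 1 it was -0.20. Ndufa4 had the smallest p, at -0.23 ± 0.11, followed by Sdhc (-0.27 ± 0.16), Ndufs3 (-0.18 ± 0.11) and Ndufb8 (-0.25 ± 0.15).

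Sarcomere genes had a median interaction of -0.12 over 22 tested members, with 19 below 0, and no member was separate between the groups at either stage. That median was -0.25 without E14.5 KO replicate 1 and -0.02 without E13.5 KO replicate 3. Myl4, the atrial and embryonic myosin light chain, had an interaction of -0.30 ± 0.13, Actc1, cardiac actin, of -0.22 ± 0.12, Tpm1, tropomyosin, of -0.21 ± 0.13 and Myom2 of 0.45 ± 0.67. Myh6, the alpha myosin heavy chain, had effects of -0.25 ± 0.25 and -0.33 ± 0.25. The atrial natriuretic peptide gene Nppa had effects of 0.46 ± 0.25 and 0.72 ± 0.25.

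S phase and E2F target genes had a median interaction of -0.12 over 24 tested members, with 21 below 0 and none at an unadjusted p under 0.05, and of -0.08 without E14.5 WT replicate 8. All 24 had KO effects under 0.25 (log2), the smallest size counted, at both stages. KO hearts were above all WT hearts in 9 of the 24 at E13.5 (8.44% of all genes) and in 1 at E14.5 (6.81%). Cdc6 (-0.25 ± 0.14), Chaf1a (-0.18 ± 0.11), E2f1 (-0.23 ± 0.14) and Gins2 (-0.22 ± 0.14) led the list, and E2f2 was at 0.13 ± 0.16. Hypoxia response genes had a median interaction of 0.11 over 23 tested members, 20 of them above 0, and it ran from 0.05 without E13.5 WT replicate 1 to 0.25 without E13.5 WT replicate 2. The MYC antagonist Mxi1 was at 0.26 ± 0.09, the collagen hydroxylase subunit P4ha1 at 0.32 ± 0.17, Bnip3 at 0.40 ± 0.26, the angiogenic ligand Vegfa at 0.28 ± 0.19 and the carbonic anhydrase Car9 at -0.16 ± 0.26. Without E14.5 KO replicate 2 the interaction was 0.18 for P4ha1 and 0.14 for Bnip3, and without E13.5 WT replicate 1 it was 0.14 for Vegfa. The epicardial factor Wt1 was at 23.6 to 26.5 CPM in E13.5 WT and 25.8 to 28.5 CPM in E13.5 KO hearts, which overlapped, and at 20.1 to 23.1 CPM and 27.0 to 34.9 CPM at E14.5, which did not. Its interaction was 0.42 ± 0.14 (unadjusted p = 0.00864).

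**Figure D4:**
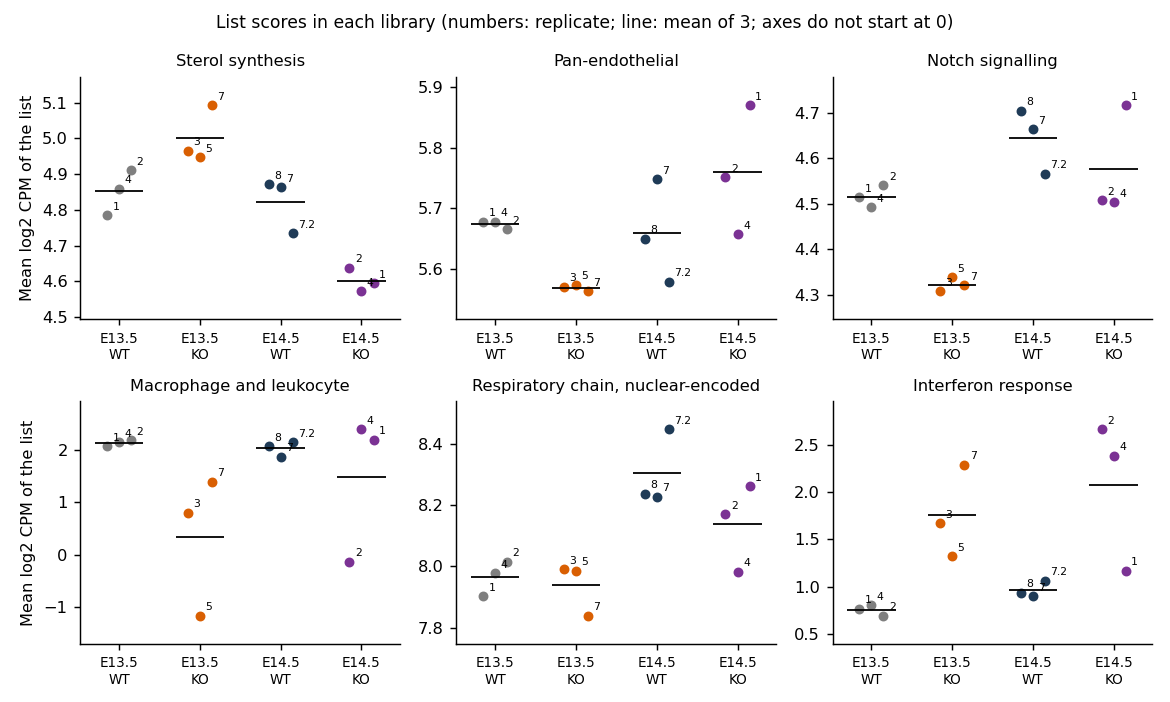
Mean log2 CPM of 6 gene lists in each library (points with replicate numbers; the line is the mean of 3 embryos). Sterol synthesis scores are above WT in KO hearts at E13.5 and below WT at E14.5, and E14.5 KO replicate 2 (macrophage genes, -0.13) and replicate 1 (interferon genes, 1.17) stand apart from the other KO hearts of that stage.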

How the data were processed

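Libraries were made from RNA of whole hearts with the NEBNext Ultra kit, per the labels. No label says whether reads were counted by strand. The authors deposited a table of raw read counts per gene. STAR 2.5.3a, featureCounts, DESeq, DESeq2 and the GRCm38 build are named in the submitters' processing notes, with no role or order. The table held 45664 rows, of which 27 carried a date in place of a gene symbol. Genes with low counts were removed with filterByExpr of edgeR 4.0.16 (R 4.3.3), which left 20691. TMM scaling and a robust quasi-likelihood fit of the 4 groups to all 12 libraries gave the interaction and both stage effects, with Benjamini-Hochberg adjustment over all genes at 0.05, a common biological coefficient of variation of 17.1% and 8 residual degrees of freedom. Each SE was derived as the absolute fold change (log2) over the root of the F statistic. Levels are CPM (counts scaled to TMM-adjusted library size), and list scores are means of log2 CPM with a prior count of 2. Coordinates came from GENCODE M21 for 19493 of the tested genes (94.2%), and 250-base windows from RefSeq. The procedure was tested on simulated data.

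Named genes were Ino80, the 10 with the smallest interaction p in each direction and the 10 with the smallest p called at each stage, leaving out genes under 1 CPM on average and symbols with prefixes or endings of predicted genes and clones (Gm, Rik, AU and others). AA is not among these prefixes, so AA465934 stayed in, while AU021092, called at both stages with effects of -1.33 and -1.56, was left out. Up to 4 members with the smallest p and 1 of opposite sign in each described list, and a panel of 18 genes, were added. Idi1, Nppc, Ltk, Ckmt1 and Duox2 were named after their values were seen. Some genes that these rules name are not reported here. The members and gene lists were chosen with earlier results of these data known. Alternatives were DESeq2 1.42.0, limma 3.58.1 voom with quality weights, RLE size factors, no filter, the litter as a block, Y-linked or erythroid expression as a covariate, single-stage fits, and fits without litter 3, without a pair of KO hearts low in macrophage genes and without each library. Replicate numbers are embryo numbers and pair no samples. Litters were shared across genotypes, per the labels. Deviations from the group means were correlated over pairs of 1 KO and 1 WT heart at E14.5. The mean correlation was 0.00399 over 5 pairs of the same litter and -0.00501 over 4 pairs of different litters. Deviations cancel within each group, so the second mean is largely fixed by the first. The values therefore do not show whether litter mattered.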

Additional observations from a re-analysis of the deposited data

How the results depend on the processing

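No interaction was called under any alternative except DESeq2, which called 2, with 553 to 1379 genes at an unadjusted p under 0.05. With the litter as a replicate block the interaction count was 0, and the stage counts were 60 at E13.5 and 92 at E14.5 in place of 22 and 46. At E13.5 DESeq2 called 303, voom 405, the fit with no filter 40, the Y-linked covariate 9, the erythroid covariate 37, the fit without litter 3 71 and the E13.5 libraries alone 95, and single libraries left out gave 2 (without E13.5 WT replicate 4) to 69 (without E14.5 KO replicate 1). At E14.5 DESeq2 called 334, voom 26, no filter 77, the fit without both KO hearts low in macrophage genes 10 and the E14.5 libraries alone 2, and single libraries left out gave 10 (without E14.5 WT replicate 7.2) to 107 (without E14.5 KO replicate 1). With a smallest size of 0.5, 2386 genes were recovered, 1586 worsened and 219 reversed. The median interaction was 0.167 for pan-endothelial genes and -0.0855 for the insulin-like growth factor system without litter 3. Without both KO hearts it was 0.229 for coronary arterial, -0.198 for S phase and 0.00541 for endothelial-to-myocardial genes, and the coronary arterial median ran from 0.0757 to 0.221 with single libraries left out. The fit without robust estimation of the spread, chosen after seeing the data, called 0, 16 and 50 genes. The cause of these differences was not tested.

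Among 122 named genes under 22 settings, 73 of 2684 values changed sign, in 21 genes, none of them called for its interaction. Leaving out 1 library moved the value by over 1.5 times for 61 of the 122 genes and the median for 14 of the 19 lists. Without litter 3 the interaction was -0.022 for Ino80, 0.0913 for Gchfr, -0.16 for Ephb1, -0.34 for Notch1, 0.0413 for Lyz2, -7.2e-05 for E2f2, 0.14 for Bst2, 0.0823 for Xaf1 and 0.0030 for Cdkn1a. With voom it was 0.21 for Gchfr, -0.0253 for Ephb1, -0.12 for Notch1, 0.34 for Lyz2 and 0.0315 for Myh6. With the Y-linked covariate it was -0.0287 for Ephb1, -0.0319 for Notch1, 0.0937 for Lyz2, -0.0189 for Nrg1 and 8.6e-06 for Bst2. With the erythroid covariate it was -0.0142 for Ephb1 and 0.0089 for Lyz2, with no filter 0.0027 for Lyz2, and without both KO hearts 0.0679 for Lyz2 and -0.0725 for Nrg1. With single libraries left out, the values ran from -0.33 to 0.15 for Gchfr, -0.59 to 0.15 for Cpa3, -0.13 to 0.19 for Ephb1, -0.38 to 0.23 for Vwf, -0.16 to 0.22 for Notch1, -0.0113 to 0.44 for Aplnr, -0.11 to 0.0385 for Vegfb, -0.31 to 0.36 for Lyz2, -1.41 to 0.47 for Cma1, -0.19 to 0.87 for Myom2, -0.31 to 0.19 for Myh6, -0.0236 to 0.23 for E2f2, -0.0872 to 0.57 for Nrg1, -0.56 to 0.0225 for Cd59b, -0.35 to 0.20 for Bst2, -0.99 to 0.0097 for Isg15, -0.37 to 0.15 for Cdkn1a, -0.28 to 0.0059 for Car9 and -0.00023 to 2.09 for Hbb-bs.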

Other observations

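Processed pseudogenes differed from protein-coding genes as a class, a split looked at after the scatter of both stage effects had been seen. Of 2883 tested processed pseudogenes 2408 had an interaction below 0. Their median KO effect was 0.20 at E13.5, with 2470 above WT, and 0.01 at E14.5. The median stage difference was 0.24 in WT and 0.06 in KO hearts. Their mean log2 CPM was lowest in E13.5 WT replicate 1, the library with the most counts, at 1.33, and 1.78 to 2.22 in the other libraries, while they held 10.5% to 11.9% of the counts in all. At an unadjusted p under 0.05 there were 2 above 0 and 68 below 0, against 433 and 156 of 14647 protein-coding genes, whose median interaction was 0.02. Adjusting within the protein-coding genes left 0 called. Pseudogene reads can be shared with the parent genes, and the part of depth in these values was not tested.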
